A study of Mus musculus with 6 samples.

Results

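Pancreatic triglyceride lipase (Pnlip), its related proteins Pnliprp1 and Pnliprp2, carboxyl ester lipase (Cel), colipase (Clps) and the pancreatic phospholipase A2 (Pla2g1b) are the 6 genes described here. They were chosen as the genes of the secreted lipid-digesting enzymes and matched by symbol to 6 of the 31053 genes in the deposited count matrices. Their transcripts were followed in the acinar-like cells of each library and, beside them, in the other cell classes of the pancreas. Single pancreatic cells came from mice of the strain R26[CA]30EYFP on the C57Bl/6J background, in which EYFP, a yellow fluorescent protein, is kept out of frame at the Rosa26 locus by a repeat of CA dinucleotides until that repeat mutates. Each of 3 runs gave 1 library of EYFP negative and 1 library of EYFP positive cells. Runs 1 and 2 are homeostasis (treatment none), and run 3 was collected 9 days after cerulein, given intraperitoneally at 50 ug/kg in 7 hourly injections a day on 2 days. The 6 libraries thus form 4 groups, with 2 libraries each in homeostasis and 1 each after cerulein. Run 3 and pancreatitis cannot be told apart. The labels give no age or sex and do not name the animals behind each library. A p-value here therefore reflects spread from library to library, which may be technical.

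Dietary triglyceride is split in the gut lumen by pancreatic triglyceride lipase, which bile salts displace from the fat droplet unless colipase anchors it there. Pnliprp2 acts on phospholipids and galactolipids as well, Pnliprp1 has little known triglyceride lipase activity, Cel hydrolyses cholesteryl esters and other esters in the presence of bile salts, and Pla2g1b is secreted as a zymogen and cuts phospholipids once trypsin has activated it. All are made by acinar cells, packed into zymogen granules and released with the proteases and amylase.

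The bases before the start of transcription were read for 5 of the 6 genes from the RefSeq promoter table (GRCm38.p6). 3 short motifs were searched on both strands in the 250 bases before each start. The first, CACCTG, is an E-box of the kind bound by the acinar factor PTF1A with its partners. The second motif searched for was TTCCCA, which belongs to the RBPJ type. The third is the TATA box, TATAAA. Pnlip, Cel and Pla2g1b are printed because the transcripts of Pnlip and Cel moved together from cell to cell while those of Pla2g1b did not move with them, as described further on. Capitals mark the matches, each sequence runs 5′ to 3′ on its own gene's strand, and no match overlapped another. Pnlip lies at chr19:58670115-58670364 on the plus strand, Cel at chr2:28563404-28563653 on the minus strand and Pla2g1b at chr5:115465892-115466141 on the plus strand.
Pnlip: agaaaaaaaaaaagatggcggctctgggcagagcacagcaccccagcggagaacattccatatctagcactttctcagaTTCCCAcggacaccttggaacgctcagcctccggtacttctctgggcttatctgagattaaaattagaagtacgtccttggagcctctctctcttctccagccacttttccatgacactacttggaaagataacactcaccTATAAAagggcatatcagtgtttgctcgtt
Cel: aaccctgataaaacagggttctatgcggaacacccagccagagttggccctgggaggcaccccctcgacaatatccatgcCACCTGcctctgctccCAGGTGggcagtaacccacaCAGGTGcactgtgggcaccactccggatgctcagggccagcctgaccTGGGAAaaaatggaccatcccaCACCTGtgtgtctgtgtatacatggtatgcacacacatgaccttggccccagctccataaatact
Pla2g1b: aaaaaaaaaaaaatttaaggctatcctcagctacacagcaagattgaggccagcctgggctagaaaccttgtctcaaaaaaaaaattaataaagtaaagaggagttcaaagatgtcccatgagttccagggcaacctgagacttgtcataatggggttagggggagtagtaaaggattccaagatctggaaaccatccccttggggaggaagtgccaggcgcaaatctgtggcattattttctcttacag
The Cel window held 4 E-box matches, at 170, 154, 134 and 65 bases before the start, and 1 RBPJ-like match at 87 bases. Pnlip held an RBPJ-like match at 171 bases and a TATA box at 30 bases, and the Pla2g1b window held none of the 3 motifs. In Pnliprp2, at chr19:58759473-58759722 on the plus strand, an E-box lay 228 bases before the start, and in Pnliprp1, at chr19:58728637-58728886 on the plus strand, an RBPJ-like match lay 91 bases before it. Of 32851 mouse promoters of the same length, 17.2% held this E-box, 21.6% the RBPJ-like motif and 12.4% the TATA box, and 3.91% held both of the first 2. Pnliprp1 and Pnliprp2 are neighbours on chromosome 19, where Pnlip lies too.

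The 6 libraries held 8582 barcodes and between 1044718 and 23658431 UMIs (unique molecular identifiers, each counted as 1 transcript copy). Of 4888 cells kept, 565 were acinar-like by marker genes that did not include the 6 genes, with 8, 23 and 369 cells in EYFP negative runs 1, 2 and 3 and 38, 36 and 91 in the EYFP positive runs. All 22 measured acinar markers had a UMI in the acinar-like cells of every library, and all 5 adipocyte markers were at 0. Markers of some other classes were present, at far lower summed levels than the acinar ones. Of 16 ductal markers, 7 to 15 had a UMI there, by library. In EYFP negative run 3 so did 14 of 15 endothelial and 8 of 8 erythroid markers. EYFP positive run 2 stood apart: 31 of its 36 acinar-like cells, with 7 of 23 in EYFP negative run 2 and 3 of 38 in EYFP positive run 1, fell in a cluster of cells rich in Malat1, a nuclear noncoding RNA, at 126165 to 227186 CPM (UMIs of a gene per 1000000 UMIs of the cells counted). There the other digestive enzymes made up 4.83% to 11.1% of UMIs, against 51.0% to 64.1% in the largest acinar-like cluster. Haemoglobin made up 2.18% of acinar-like UMIs in EYFP negative run 3 and at most 0.128% in the other libraries. Within a run, 23, 71 and 47 barcodes were present in both libraries, the copy with fewer UMIs holding a median of 1.77% to 8.80% of the other's. Of these lower copies 2 were acinar-like and others were ductal-like: 4, 21 and 7 in the EYFP negative libraries of runs 1, 2 and 3, and 1 from EYFP positive run 2.

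Together the 6 genes made up between 5.26% and 16.4% of all acinar-like UMIs, and between 12.5% and 22.0% once only the largest acinar-like cluster was counted. Levels below are CPM over the acinar-like cells of a library, in the order EYFP negative runs 1, 2 and 3, then EYFP positive runs 1, 2 and 3. Pnlip was at 53486, 52072, 30535, 60308, 13272 and 42040 CPM, a mean of 41952 ± 17466 (SD, n = 6). Its lowest library was EYFP positive run 2, followed by EYFP negative run 3. In the largest cluster alone EYFP positive run 2 was at 52489 CPM, from 5 cells and 11088 UMIs in all, and the 2 run 3 libraries, at 30547 and 42831, were the lowest. Pnliprp1, the relative with little known lipase activity, was at 15742, 15749, 10038, 11447, 3546 and 8907 CPM (10905 ± 4606, SD, n = 6). Again EYFP positive run 2 was lowest, and it stayed so in the largest cluster, at 4149 CPM against 9051 to 17372 in the other libraries. Pnliprp2 was at 3100, 2591, 1900, 2249, 781 and 2406 CPM (2171 ± 788, SD, n = 6), so it too was lowest in EYFP positive run 2.

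Cel, the bile salt dependent esterase, was at 11541, 7673, 5544, 11379, 5729 and 7533 CPM (8233 ± 2651, SD, n = 6). Unlike the other 5 genes it was not lowest in EYFP positive run 2 but in EYFP negative run 3, and the 2 run 1 libraries were highest. Colipase was at 45405, 81191, 73927, 59313, 27708 and 56990 CPM (57422 ± 19331, SD, n = 6). In the largest cluster alone Clps of EYFP positive run 2 went from the lowest to the highest value, 148719 CPM, against 45405 to 89300 elsewhere. Pla2g1b, the phospholipase, was at 4561, 4943, 6065, 5213, 1588 and 5926 CPM (4716 ± 1637, SD, n = 6). Without the Malat1-rich cells it was the most even of the 6, at 4561 to 6073 CPM in every library.

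**Figure D1:**
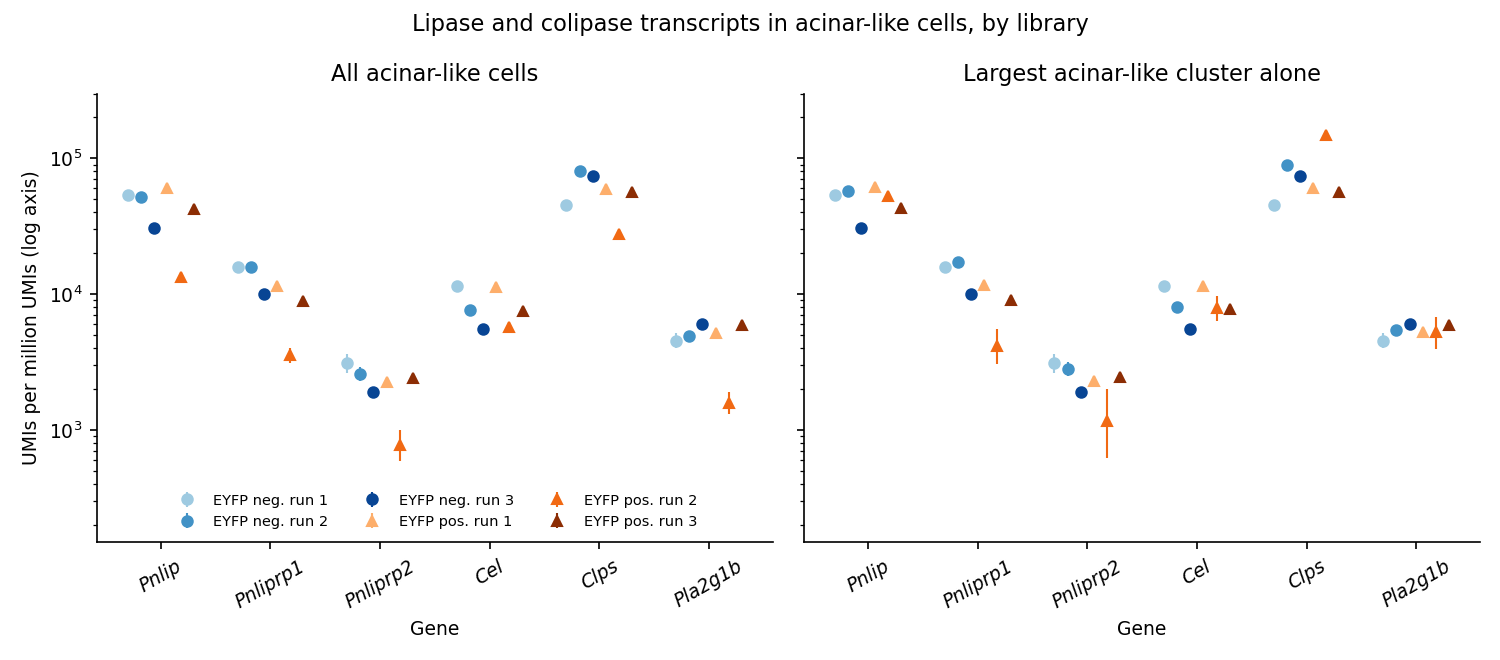
CPM (log axis) of each gene in all acinar-like cells (left) and in the largest acinar-like cluster alone (right). Each point is 1 library, and bars are 95% exact binomial intervals of the gene's share of UMIs. EYFP positive run 2 lies low for 5 genes on the left, and on the right its Clps, at 148719, is the highest.

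Divided by the length of the longest coding transcript (611 bases for Clps, 1487 for Pnlip, 557 for Pla2g1b, 1619 for Pnliprp1, 2063 for Cel and 1572 for Pnliprp2), mean levels ran from Clps, at 93981 CPM per kb, through Pnlip at 28213, Pla2g1b at 8467, Pnliprp1 at 6736 and Cel at 3991 to Pnliprp2 at 1381 CPM per kb. On this scale Clps exceeded Pnlip, Pnlip exceeded Pla2g1b and Cel exceeded Pnliprp2 in 6 of 6 libraries. The neighbours Pla2g1b and Pnliprp1 kept that order in 4 of 6 libraries, and Pnliprp1 and Cel in 5 of 6. The kit, and so whether UMIs came from 1 end of the transcript, is not given in the labels. Without division by length Pla2g1b moves below Pnliprp1 and Cel.

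Nearly every acinar-like cell carried transcripts of the abundant genes. With each cell thinned to 1000 UMIs, the share of acinar-like cells expected to keep a UMI was 96.3% to 100% for Clps over the 6 libraries, 96.2% to 100% for Pnlip and 94.6% to 99.6% for Cel. It was 86.4% to 100% for Pnliprp1, 72.6% to 99.0% for Pla2g1b and 48.7% to 89.3% for Pnliprp2. Shallower cells were left out, between 0 and 10 per library, and median depths were 1717 to 6918 UMIs. Before thinning the lowest shares were 97.2% for Clps, 94.5% for Cel and 63.9% for Pnliprp2. T or NK-like cells, which should lack these genes, had a Clps UMI in 14.8% to 22.2% of thinned cells and a Pnlip UMI in 12.6% to 18.3%, with median depths of 2686 to 7567 UMIs. The acinar-like shares of Clps, Pnlip, Cel and Pnliprp1 lay far above that level. Pnliprp2 was found in at most 1.60% of thinned T or NK-like cells, so its lower acinar-like share was above its own background too.

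The makeup of the lipid-digesting transcripts differed between libraries. Clps made up 33.9% of the UMIs of the 6 genes in EYFP negative run 1, 49.4% in EYFP negative run 2 and 57.8% in EYFP negative run 3. In the EYFP positive runs 1, 2 and 3 its share was 39.6%, 52.7% and 46.0%. Pnlip made up 40.0%, 31.7% and 23.9% in the EYFP negative runs and 40.2%, 25.2% and 34.0% in the EYFP positive runs. Both run 1 libraries thus held more Pnlip than Clps UMIs, by little in EYFP positive run 1 (40.2% against 39.6%), and the other 4 held more Clps.

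In the Malat1-rich cells all 6 genes were lower than in the largest cluster, and Cel was the least lowered in 2 of 3 libraries. In EYFP positive run 2 Pnliprp1 was closer still, at 3443 against 4149 CPM. Clps was at 4879, 3785 and 6901 CPM there in EYFP negative run 2 and EYFP positive runs 1 and 2, against 89300, 60607 and 148719 in the largest cluster of the same libraries. Cel was at 3635, 6150 and 5350 CPM in the Malat1-rich cells, against 8102, 11501 and 7937. Cel therefore took a larger part of the 6 genes' UMIs, 30.4% (exact 95% interval 22.5% to 39.3%) in EYFP negative run 2, 30.0% (22.3% to 38.7%) in EYFP positive run 1 and 22.4% (20.3% to 24.6%) in EYFP positive run 2. In the largest cluster of these libraries its part was 4.49%, 7.52% and 3.61%. The clusters were made from the same cells, so this is a description with no test, and intervals cover counting error only. Over the 3 libraries Cel gave 422 of 1796 UMIs in 41 Malat1-rich cells, with a median depth of 1611 UMIs against 6308 in the largest cluster.

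**Figure D2:**
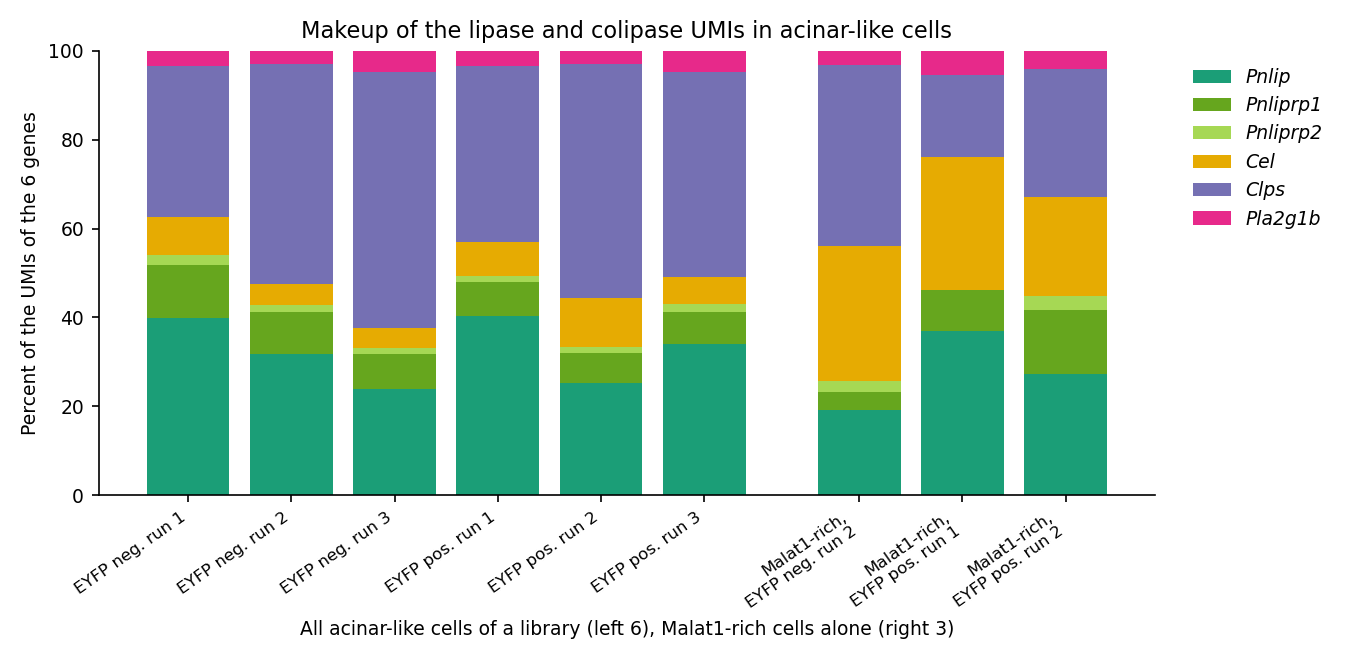
Stacked bars of the percent of the 6 genes' UMIs that each gene makes up, in all acinar-like cells of each library (left 6 bars) and in the Malat1-rich cells of the 3 libraries that hold them (right 3 bars). Cel makes up 22.4% to 30.4% in the Malat1-rich cells.

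Within a library the 4 lipase genes went together from cell to cell, and colipase went with the phospholipase. This was seen in the largest acinar-like cluster, with each cell thinned to 2000 UMIs, as Pearson's r of log2(count + 1) in the 3 libraries with at least 20 such cells (EYFP negative run 3 with 329, EYFP positive run 3 with 78 and EYFP positive run 1 with 32). For Pnlip and Cel r was 0.75, 0.76 and 0.51 in these libraries. Pnlip and Pnliprp1 gave 0.74, 0.67 and 0.26, and Pnlip and Pnliprp2 gave 0.66, 0.68 and 0.39. Clps and Pla2g1b gave 0.58, 0.53 and 0.80. The lipase pairs were thus close in both run 3 libraries and looser among the 32 cells of EYFP positive run 1, where Pnliprp1 and Pnliprp2 gave 0.04.

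Clps did not follow its partner lipase. For Pnlip and Clps r was -0.06 in EYFP negative run 3, -0.60 in EYFP positive run 3 and -0.20 in EYFP positive run 1. Spearman's rho, which is moved less by single cells with very few enzyme UMIs, was -0.57, -0.70 and -0.17. Cel and Clps gave r of -0.23, -0.57 and -0.13, and Pnliprp1 and Clps gave -0.30, -0.52 and -0.46. Each cell holds the same total of 2000 UMIs, of which Clps alone took a median of 149 in EYFP negative run 3, so a cell with more of 1 abundant gene has less room for the others. The part of that shared total in these values was not tested. All cells of a value share 1 library, and no p is given.

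**Figure D3:**
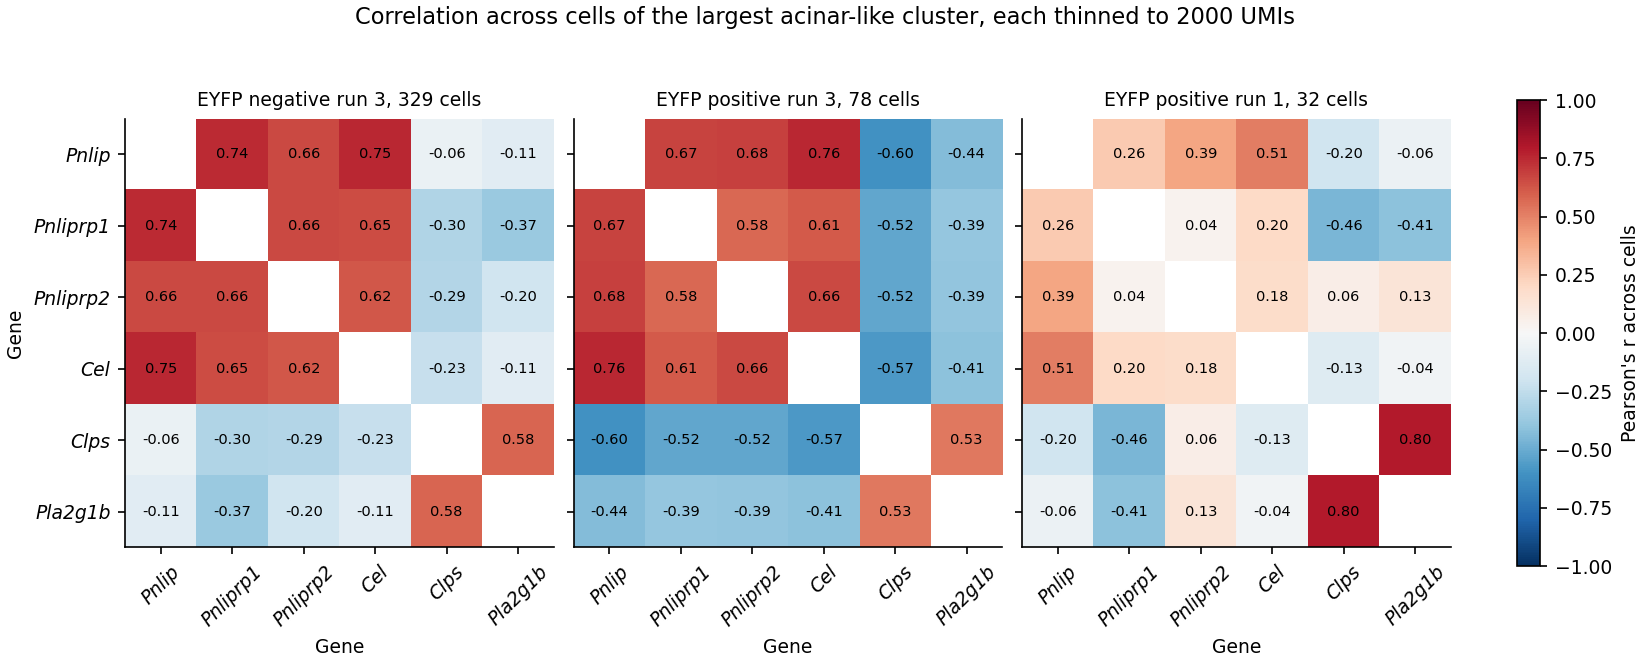
Pearson's r between each pair of the 6 genes across cells of the largest acinar-like cluster (colour scale from -1 to 1), each cell thinned to 2000 UMIs, in 3 libraries. Pnlip, Pnliprp1, Pnliprp2 and Cel form a block of positive values, 0.58 to 0.76 in the 2 run 3 libraries, and Clps and Pla2g1b form a second block.

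The ratio of Clps to Pnlip in a cell varied widely. Its median was 2.71 in EYFP negative run 3, 1.32 in EYFP positive run 3 and 1.10 in EYFP positive run 1. More Pnlip than Clps was found in 10.6% of the 329 cells, 33.3% of the 78 and 46.9% of the 32. In EYFP negative run 3 the middle 90% of cells ran from 0.620 to 17.2 Clps UMIs per Pnlip UMI. Each of these is 1 library, so the differences between them have no replicate check.

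**Figure D4:**
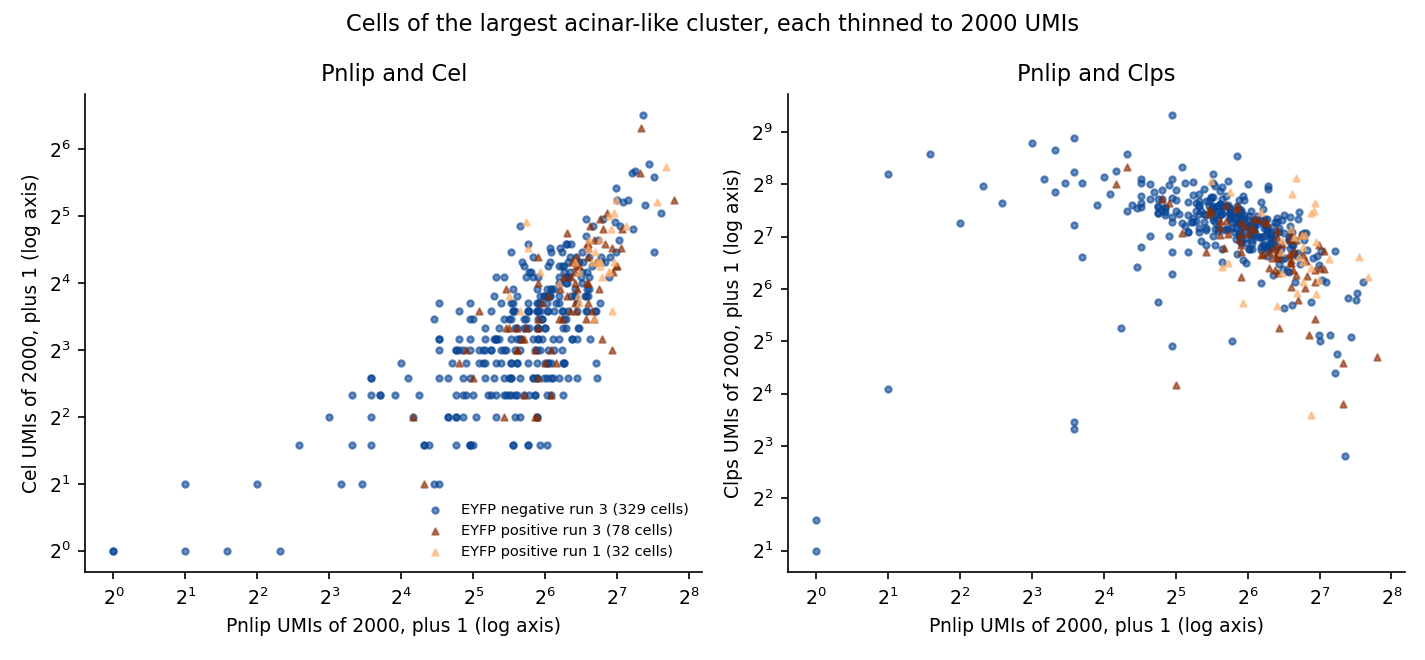
Each point is 1 cell of the largest acinar-like cluster, thinned to 2000 UMIs; axes are UMIs plus 1 on log scales, Cel (left) or Clps (right) against Pnlip, in 3 libraries. Cel rises with Pnlip, while Clps runs against Pnlip in the 2 run 3 libraries (Spearman's rho -0.57 and -0.70), with rho at -0.17 in EYFP positive run 1.

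Among 66 other genes at 1000 CPM or more, those most like each lipase across the 338 acinar-like cells of EYFP negative run 3 were proteases. Pnlip was closest to Cpb1, a carboxypeptidase (r = 0.87), then Cela1, an elastase (0.74). Among the closest genes were Cpb1 (0.79) and Klk1 (0.64) for Pnliprp1, Cpb1 (0.61) and Cpa1 (0.53) for Pnliprp2, and Cpa1 (0.66) and Cpb1 (0.65) for Cel. Clps was closest to Tff2, a trefoil peptide (0.69), Rnase1, the pancreatic ribonuclease (0.69), and Zg16, a zymogen granule lectin (0.61). Pla2g1b had looser neighbours, Tff2 (0.45), Rpl41 (0.42) and Cela3b (0.39). In EYFP positive run 3 (81 cells) Pnlip and Cpb1 gave 0.84 and Clps and Rnase1 0.76. In EYFP positive run 1 (34 cells) they gave 0.78 and 0.85, and within its largest cluster 0.43 and 0.72.

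To ask whether labelled acinar-like cells differ in these genes, the 3 EYFP positive libraries were tested against the 3 EYFP negative ones, with condition as a covariate. None of the 6 passed edgeR's quasi-likelihood test. It called 0 of 727 genes (0%) at a Benjamini-Hochberg adjusted p under 0.05, 5 genes had an unadjusted p under 0.05 (none of the 6 among them), and DESeq2 called 0 as well. The log2 difference, EYFP positive minus negative, was -0.01 ± 1.10 (SE) for Pnlip, -0.62 ± 0.99 for Pnliprp1, -0.36 ± 0.91 for Pnliprp2, 0.10 ± 0.92 for Cel, -0.35 ± 1.01 for Clps and -0.17 ± 0.92 for Pla2g1b, each with an edgeR adjusted p of 1. Group means were 45364 ± 12862 CPM in EYFP negative and 38540 ± 23713 CPM in EYFP positive libraries for Pnlip (SD, n = 3 each). They were 66841 ± 18916 and 48003 ± 17615 CPM for Clps. The groups overlapped for all 6 genes, and with standard errors near 1 on the log2 scale, changes of that size were not detectable with these libraries.

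In homeostasis alone (2 against 2 libraries) edgeR called 0 of 2392 genes, 34 at an unadjusted p under 0.05, none of them among the 6, and DESeq2 called 0. Log2 differences there ran from -0.63 ± 2.57 (SE) for Pnliprp1 to 0.09 ± 2.46 for Cel. The median of all 2392 genes was 0.45, and Cel had a positive log2 difference although its mean CPM was not higher in EYFP positive libraries (11379 and 5729 against 11541 and 7673 CPM). The absence of calls depends on EYFP positive run 1. Without it the lone EYFP positive homeostasis library was run 2, and the spread came only from the 2 EYFP negative homeostasis libraries. All 6 lipid-digesting genes then had lower values in EYFP positive cells, and edgeR called them along with many other genes. With 1 library in a group, no result about the 6 genes is read from that fit. Without EYFP positive run 2, edgeR called 2 genes and none of the 6.

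Run 3, 9 days after cerulein, was compared with homeostasis with EYFP in the model. By edgeR's adjusted p none of the 6 genes changed, while 7 of 727 genes (0.963%) were called, all higher in run 3. Unadjusted, 181 genes had p under 0.05, again none of the 6, and DESeq2 called 129 genes and none of the 6. The log2 difference of run 3 from homeostasis was -0.42 ± 1.18 (SE, edgeR adjusted p = 0.851) for Pnlip and -0.56 ± 1.0 (0.772) for Cel. It was -0.29 ± 1.06 (0.884) for Pnliprp1 and -0.02 ± 0.97 (0.989) for Pnliprp2. For Clps it was 0.26 ± 1.06 (0.889) and for Pla2g1b 0.47 ± 0.96 (0.797). Pnlip had a mean of 44785 ± 21314 CPM in homeostasis (SD, n = 4) and 36288 ± 8136 in run 3 (SD, n = 2), and Clps 53404 ± 22593 and 65458 ± 11976.

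EYFP negative run 2 and EYFP positive run 2, the libraries with the most Malat1-rich cells, together make up run 2. Without either alone edgeR called none of the 6 genes. It called 37 of 856 genes without the EYFP negative library and 64 of 727 without the EYFP positive one. Leaving out both, an alternative chosen after seeing the data, changed the result for the 6. It sets the 2 libraries of run 3 against the 2 of run 1, so its standard errors hold no spread between runs of a condition. There edgeR called 78 of 1091 genes, 62 of them lower, and 3 of the 6 genes fell in run 3. Pnlip fell by 0.98 ± 0.14 (SE) on the log2 scale (edgeR adjusted p = 0.000775), Cel by 1.14 ± 0.21 (0.0041) and Pnliprp1 by 0.82 ± 0.20 (0.0188). Pnliprp2 was at -0.62 ± 0.30 (0.371), and Clps and Pla2g1b were at 0.01 ± 0.17 and -0.02 ± 0.23. In both EYFP fractions run 3 was below run 1 for Pnlip, from 53486 to 30535 CPM and from 60308 to 42040, and for Cel, from 11541 to 5544 and from 11379 to 7533.

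In the largest cluster of all 6 libraries edgeR called 22 genes and none of the 6, with log2 differences of -0.81 ± 0.55 (SE, adjusted p = 0.626) for Pnlip and -0.79 ± 0.53 (0.619) for Cel. There the 2 run 3 libraries lay below all 4 homeostasis libraries for Pnlip, at 30547 and 42831 against 52489 to 61538 CPM. The same held for Cel, at 5556 and 7741 against 7937 to 11541 CPM, and 2.75% of the 727 genes lay lower without overlap. A gene with no UMI in 1 homeostasis library cannot lie lower, and EYFP positive run 2 held 11088 UMIs in this cluster. That share is thus no even base for abundant genes such as Pnlip and Cel, and no result is read from it. Pla2g1b lay higher without overlap, at 5969 and 6073 against 4561 to 5428 CPM, as did 13.8% of the genes, a share that sets nothing apart about its place. Over all acinar-like cells Pla2g1b alone of the 6 did not overlap, being higher in run 3, as were 19.5% of the genes.

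Pancreatitis within each EYFP fraction (1 library against 2, the lone one assumed to vary like the others) gave 0 called genes of 2392 in edgeR. At an unadjusted p under 0.05 there were 155 genes in the EYFP negative fraction and 244 in the other, with none of the 6, and DESeq2 called 21 and 38. Log2 differences ran from 0.11 ± 3.0 (SE) for Cel to 1.28 ± 2.75 for Pla2g1b in EYFP negative cells. In EYFP positive cells they ran from 0.52 ± 2.96 for Cel to 1.35 ± 2.75 for Pla2g1b. These signs do not follow the CPM of every gene. In EYFP negative cells Pnlip, Pnliprp1 and Cel were lower in run 3 than in both homeostasis libraries (5544 against 11541 and 7673 CPM for Cel), and their log2 differences were 0.13, 0.28 and 0.11. The median of all 2392 genes was 0.36 in the negative fraction and -0.47 in the positive one, and with standard errors of this size no direction is read from these fits. The interaction of pancreatitis and EYFP, which compares these effects, had 0 called genes in edgeR and in DESeq2, with 24 at an unadjusted p under 0.05 in edgeR and none of the 6 among them. Without EYFP positive run 1 the EYFP positive comparison is run 3 against run 2 alone, 1 library against 1. Its spread comes only from the 2 EYFP negative homeostasis libraries, and 31 of the 36 cells of run 2 are Malat1-rich. There all 6 genes had higher values in run 3, but edgeR called many genes beyond these 6. No result about the 6 genes is read from that fit or from its interaction.

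The other digestive enzymes set the background for these genes. Of 26 tested, 5 rose in run 3 by edgeR's adjusted p, and their median log2 difference was 0.12, against -0.16 for the 6 lipid-digesting genes and -0.05 for all 727 genes. The 5 that rose are trypsinogen-type genes with near-identical copies: Prss1, Gm5771, Gm2663, Gm10334 and 1810009J06Rik. Counting can split reads among such copies, and the part of this here was not tested. The 3 with the lowest p in edgeR were almost absent in homeostasis. Gm2663 had 0 UMIs in each homeostasis library, Prss1 at most 1 and Gm5771 at most 2, against 198 to 1455 in the run 3 libraries. Ctrb1, a chymotrypsinogen, was at 0.90 ± 1.14 (SE, adjusted p = 0.704), Cela2a at -0.10 ± 1.27 (0.964) and Prss2 at 0.17 ± 1.19 (0.934). Of 9 zymogen granule genes none was called, with a median of -0.35. The acinar transcription factors Ptf1a, Rbpjl and Xbp1 were at -2.32 ± 0.87 (edgeR adjusted p = 0.138), -3.19 ± 1.43 (0.203) and -1.47 ± 0.66 (0.203), none of 3 called. Rbpjl was at 3771 CPM in EYFP positive run 2 and at 38.4 to 395 CPM in the other libraries. Cckar, the cholecystokinin receptor that cerulein acts on, was at -0.30 ± 0.55 (0.781).

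Other lipases were at low levels in acinar-like cells. Of 20 genes of lipase families outside the 6, 8 had a UMI there and none reached a mean of 100 CPM over the 6 libraries. The highest means were those of Lpl and Mgll, which in EYFP positive run 2 were at 238 CPM (18 UMIs) and 172 CPM (13 UMIs). Of 10 genes of the secreted phospholipase A2 family and its receptor, only Pla2g12a had UMIs, 102 in all. It was at 10.8 to 27.6 CPM per library, against 1588 to 6065 CPM for Pla2g1b. Some of the 20 were abundant in other classes: Lpl, lipoprotein lipase, was at 2445 CPM in fibroblast-like cells, Mgll, monoglyceride lipase, at 1639 CPM in endothelial-like cells and Ces1d, a carboxylesterase, at 1279 CPM in ductal-like cells. In acinar-like cells Lpl was the only lipase outside the 6 that could be tested, at -3.15 ± 1.51 in run 3 (SE, edgeR adjusted p = 0.233), from 44 UMIs.

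UMIs of the 6 genes were found at a low level in the other classes too. Their sum was 261 to 911 CPM in B or plasma-like cells, 291 to 497 in T or NK-like, 539 to 1195 in endothelial-like and 359 to 1240 in fibroblast-like cells. In ductal-like cells it was 605 to 1513 CPM in 5 libraries and 25209 CPM in EYFP negative run 3. That library held 12 ductal-like cells, and 1 of them had 18952 UMIs, of which 10281 (54.2%) came from digestive enzymes. The barcodes of 7 of the other 11 were also in EYFP positive run 3, with more UMIs there. Without these 7 the sum was 26592 CPM, from 5 cells, the enzyme-rich one still among them.

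Clps made up a larger share of these UMIs in ductal-like cells than in each of 5 other classes in 5 of 6 libraries. These were the B or plasma-like, endothelial-like, T or NK-like, fibroblast-like and macrophage, monocyte or dendritic-like cells. Erythroid-like and pericyte or smooth muscle-like cells were not compared. In EYFP negative runs 1 and 2 and EYFP positive runs 1, 2 and 3 its share in ductal-like cells was 70.4%, 62.6%, 79.4%, 58.8% and 73.3%. In endothelial-like cells of the same libraries it was 50.7%, 34.6%, 59.5%, 44.9% and 61.7%, and in acinar-like cells 33.9%, 49.4%, 39.6%, 52.7% and 46.0%. Exact 95% intervals of ductal-like and endothelial-like shares did not overlap in the first 3 of these libraries. In EYFP negative run 3 it was 58.3%, and 44.2% without the 1 enzyme-rich cell, below 4 of the 5 classes compared. Without shared barcodes the ductal-like share was 64.9% in EYFP negative run 2 and 58.3% in EYFP negative run 3, where the enzyme-rich cell was still counted. Thinned to 1000 UMIs, a Clps UMI was expected in 39.9%, 35.5%, 88.8%, 50.6%, 31.1% and 39.1% of ductal-like cells, in the order of libraries used above, and in 26.2%, 21.0%, 29.8%, 24.6%, 35.1% and 38.0% of endothelial-like cells. The ductal-like share was thus higher in 5 of 6 libraries, by little in EYFP positive run 3, and lower in EYFP positive run 2. For Pnlip it was 10.7% to 18.4% in 5 libraries and 62.0% in EYFP negative run 3, against 14.1% to 30.0% of endothelial-like cells. Median depths were 1413 to 18174 UMIs in ductal-like and 2067 to 5164 in endothelial-like cells, and before thinning 75.5% to 95% and 39.3% to 73.3% of cells had a Clps UMI.

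The level of Clps did not follow in every library. It was 512, 508, 14703, 1202, 356 and 502 CPM in ductal-like cells and 274, 269, 383, 374, 536 and 547 CPM in endothelial-like cells, so EYFP positive runs 2 and 3 had the lower ductal level. No order between these classes is read there. Clusters were made from the same cells, and none of this was tested.

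**Figure D5:**
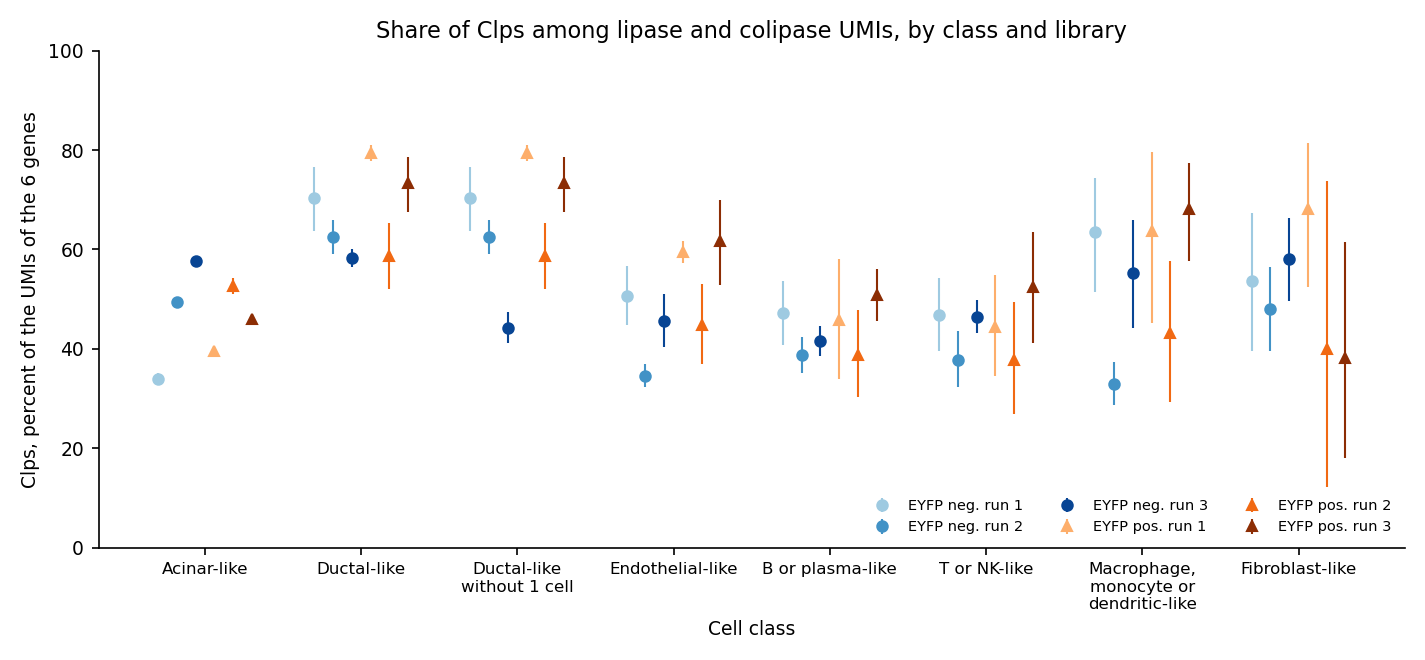
Percent of the 6 genes' UMIs that come from Clps, by cell class (horizontal axis); 1 point per library, bars are exact 95% binomial intervals. Ductal-like cells lie at 58.3% to 79.4%, and EYFP negative run 3 drops to 44.2% when 1 cell is left out.

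In ductal-like cells 2 of the 5 tested genes passed edgeR's test in run 3 against homeostasis, where 26 of 6696 genes were called (0.388%), 20 of them higher (0.299%). Pnliprp1 was higher by 4.02 ± 0.77 (SE) on the log2 scale (edgeR adjusted p = 0.0255) and Pla2g1b by 2.67 ± 0.59 (0.0487). Pnlip was at 3.76 ± 0.92 (0.0861), Clps at 3.26 ± 0.89 and Cel at 2.71 ± 0.75 (both 0.180). These values rest on EYFP negative run 3, where Pnliprp1 had 219 UMIs in 12 cells against 9 in the 15 cells of EYFP positive run 3. Without the 1 enzyme-rich cell, an alternative chosen after seeing the data, edgeR called 11 genes and none of the 5, with Pnliprp1 at 3.15 ± 0.67 (adjusted p = 0.0566). Without shared barcodes, also chosen after seeing the data, 5 of the 12 cells were left, the enzyme-rich one among them. There edgeR called Pnliprp1 (4.16 ± 0.81, adjusted p = 0.0393) but not Pla2g1b (2.72 ± 0.59, 0.0527). No fit left out both that cell and the shared barcodes. Without the library all 5 log2 differences were below 0, from -0.32 for Pla2g1b to -1.71 for Cel, and none was called.

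Between EYFP fractions edgeR called 6 of 6696 genes in ductal-like cells (0.0896%), all lower in EYFP positive, and none of the 5. Unadjusted, Pla2g1b (-1.60 ± 0.58, SE) and Pnliprp1 (-2.16 ± 0.81) had p under 0.05 and an edgeR adjusted p of 1. Without EYFP negative run 2 edgeR called 43 of 6581 genes, all 5 of these among them. Without EYFP positive run 1 it called 23 of 6499 genes, 2 of the lipid-digesting genes among them. With any of the other libraries left out, those of run 3 included, none of these genes was called. In the other classes tested none of the genes was called in either comparison. Between EYFP fractions edgeR called 0% of genes in B or plasma-like cells, 0.0278% in endothelial-like and 0.0376% in T or NK-like cells. In run 3 it called 0.18%, 0.0418% and 0.471% of genes in these classes.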

How the data were processed

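UMI counts of single cells were analysed in 6 libraries. The deposited matrices hold raw counts per gene and barcode, of barcodes that the authors had called as cells. Per the submitters' processing notes Cell Ranger 2.1.0 and GRCh38 were used, while the file headers give software version 3.1.0. The 31053 gene identifiers belong to the mouse, whose build was not given, and 30934 of them were in the gene name table. The matrices hold no row for EYFP, and the sort was not checked. The members, lists and markers were chosen with earlier results of these data known.

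Cells needed 200 genes or more and no more than 20% mitochondrial UMIs, Scrublet doublets were removed (scanpy 1.11.5), and cells were clustered without the 6 genes (2000 variable genes, 30 components, 15 neighbours, Leiden resolution 1), giving 21 clusters. A cluster was named from fixed markers among its 10 leading genes. 3 clusters were acinar-like: the largest, with 510 cells, the Malat1-rich one, with 41, and one of 14 cells in run 3 only. Counts were summed per library and class and tested with edgeR 4.0.16 (TMM, filterByExpr, quasi-likelihood, Benjamini-Hochberg adjusted p under 0.05) in R 4.3.3; the script was tested on simulated data. The standard error is the log2 difference divided by the square root of F. A class other than the acinar one was tested if each library held 10 of its cells.

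Acinar-like sums held 49994 to 3020223 UMIs. Intervals are exact and cover counting error only. Named genes were the 6, up to 3 of each list by mean CPM and up to 3 by lowest p, and the 3 most like each of the 6, of which 1 gene is not reported here; genes outside this rule were chosen after their values were seen. Alternatives were DESeq2 1.42.0, its size factors, no count filter, library sizes without or from the other digestive enzymes, all barcodes, stricter cells, doublets kept, another resolution, the 6 genes kept in clustering, the largest cluster alone, each library left out and the run as a block. The fits without shared barcodes, without 1 ductal-like cell and without both Malat1-rich libraries were added after the data were seen.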

Additional observations from a re-analysis of the deposited data

Results flagged for a closer look

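Barcodes that the cell filters left out (fewer than 200 genes, over 20% mitochondrial UMIs, or doublets) were used in no comparison of the report, only in alternatives to it, yet held UMIs of the 6 lipid-digesting genes. They held 15.9%, 30.1% and 3.84% of all UMIs of these genes in EYFP negative runs 1, 2 and 3. In the EYFP positive runs 1, 2 and 3 they held 21.0%, 28.1% and 9.66%. The share was lowest in both run 3 libraries. Over all deposited barcodes of the acinar-like kind the 6 genes made up 10.5%, 14.6%, 10%, 14.8%, 14.5% and 11.7% of UMIs, in the same order of libraries. That class was clustered anew and held 13, 87, 803, 104, 15 and 179 barcodes, against 8, 23, 369, 38, 36 and 91 cells in the report, so in EYFP positive run 2 it left cells out rather than adding them.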

How the results depend on the processing

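Counts of calls, over genes or over the 6 lipid-digesting genes, stayed within 1.5 times under 267 alternatives and moved further under 59. Of the log2 differences of these genes in the EYFP and pancreatitis comparisons of acinar-like cells and the pancreatitis comparison of ductal-like cells, 221 kept their sign and their side of the threshold, 58 changed sign, 13 passed the threshold only in the alternative and 12 passed it only in the main analysis. Where no construction of the alternative shows it, the cause was not tested. Scaling moved the median log2 difference of all genes in run 3 from -0.05 to -0.21 (DESeq2 size factors), 0.54 (library sizes without digestive enzymes) and -1.14 (library sizes from the other digestive enzymes), and between EYFP fractions from 0.05 to 0.16, 0.01 and 0.89.

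In the EYFP comparison of acinar-like cells edgeR called 5 genes in the largest cluster alone and 4 without both Malat1-rich libraries, none of the 6. Pnlip turned positive with no count filter (0.23), library sizes from the other enzymes (0.015), the largest cluster (0.13), all deposited barcodes (0.27), doublets kept (0.017), the 6 genes kept in clustering (0.0042), without shared barcodes (0.0085) and without both Malat1-rich libraries (0.55). Without both, Pnliprp2 (0.18), Clps (0.23) and Pla2g1b (0.31) did too, as did Clps in the largest cluster (0.13) and Clps and Pla2g1b with all barcodes (0.31 and 0.12), and Pla2g1b with no filter (0.039). With 1 library left out, Pnlip ran from -0.90 to 0.51, Pnliprp2 from -0.88 to 0.16, Cel from -0.27 to 0.59, Clps from -0.83 to 0.014 and Pla2g1b from -0.90 to 0.27.

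In the pancreatitis comparison of acinar-like cells the number of genes called was 129 with DESeq2, 29 with no count filter, 85 and 0 with library sizes without and from the other enzymes, 22 in the largest cluster, 78 without both Malat1-rich libraries (3 of the 6 among them), 11 with stricter cells and 21 without shared barcodes. With no count filter Pnlip (0.99), Pnliprp1 (1.12), Pnliprp2 (1.38) and Cel (0.92) turned positive. With library sizes without enzymes Pnliprp1 (0.0039) and Pnliprp2 (0.28) did, and with stricter cells Pnliprp2 (0.0075). Clps turned negative with library sizes from the other enzymes (-0.24), in the largest cluster (-0.43) and with all barcodes (-0.33), and Pla2g1b without both Malat1-rich libraries (-0.020). With 1 library left out, the genes called ran from 0, when EYFP positive run 3 was the one left out, to 152, when it was EYFP negative run 1, Pnlip from -0.91 to 0.43, Pnliprp1 from -0.76 to 0.57, Pnliprp2 from -0.52 to 1.02, Cel from -0.96 to 0.30 and Clps from -0.11 to 1.20. The upper values of the 4 lipases are those without EYFP negative run 3.

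In homeostasis edgeR called 2 genes between EYFP fractions with library sizes from the other enzymes, 1 in the largest cluster and 6 with all barcodes. With 1 library left out, genes called ran from 0 to 176 and the 6 genes called from 0 to 6. The interaction had 1 called gene with library sizes from the other enzymes and 1 with all barcodes, and with 1 library left out 0 to 82 genes and 0 to 5 of the 6. In EYFP negative cells run 3 differed from homeostasis in 21 genes by DESeq2, 1 and 2 with library sizes without and from the other enzymes, 18 in the largest cluster, 22 with all barcodes and 0 to 65 with 1 library left out. In EYFP positive cells it differed in 2 genes with DESeq2 size factors, 38 by DESeq2, 24 and 4 with those library sizes, 10 in the largest cluster, 11 with all barcodes, and 0 to 388 genes and 0 to 6 of the 6 with 1 library left out. The upper values of the homeostasis, interaction and EYFP positive comparisons are those without EYFP positive run 1. These fits tested 1413 genes and leave 1 EYFP positive library in homeostasis, so no result about the 6 genes is read from them. Over these 4 comparisons 26 of 114, 15 of 96, 33 of 102 and 17 of 102 log2 differences of the 6 genes changed sign.

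In the pancreatitis comparison of ductal-like cells 2 of the 5 genes were called in the main analysis, 1 with stricter cells and 1 without shared barcodes, and 0 with all barcodes, doublets kept, the 6 genes kept in clustering or without the 1 enzyme-rich cell. With 1 homeostasis library left out 0 to 5 were called. All 5 were called without EYFP negative run 2, among 61 of 6581 genes, and without EYFP positive run 1, among 65 of 6499. With any 1 library left out Pnlip ran from -0.70 to 5.65, Pnliprp1 from -0.43 to 6.24 and Cel from -1.71 to 4.79. Clps ran from -0.68 to 5.07 and Pla2g1b from -0.32 to 4.42. All were lowest without EYFP negative run 3 and highest without EYFP positive run 3. The latter fit, where Pnliprp2 could be tested too, leaves EYFP negative run 3, which holds the enzyme-rich cell, as the only run 3 library. Between EYFP fractions of ductal-like cells 0 to 5 of these genes were called with 1 library left out, among 5 to 43 genes called in all.

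Whether run numbers pair libraries was checked on 2392 genes. Same-run libraries gave correlations of deviations of 0.08, 0.43 and 0.55 in runs 1, 2 and 3. Run 1 is not over 0.1, so the libraries were not treated as pairs. Libraries of different runs gave -0.50 to 0.02, below each same-run value, and the value within homeostasis alone was 0.22. Likeness within a run is therefore not excluded, and the main fits do not model it. Libraries of a run do share 23, 71 and 47 barcodes, against 0 to 2 across runs. With the run as a replicate block edgeR called 1 gene and none of the 6 in the EYFP comparison, with Cel at -0.094, and 0 genes in homeostasis. Acinar-like cells number 8 and 23 in EYFP negative runs 1 and 2, which limits the precision of both.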
